A study of Arabidopsis thaliana with 4 samples.

Results

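The large subunit of the cytosolic ribosome, the 60S subunit, is built from ribosomal RNA and a set of ribosomal proteins (RPL), and in Arabidopsis thaliana each of these proteins is encoded by several nuclear paralogues. The genes described here are 60 loci of 23 such families, from RPL3 to RPL23a, given by a list of locus codes. They are 60 of the 27416 genes measured. The list's wording runs to RPL24, but it holds no gene of the RPL21 or RPL24 families, and these are counted with the other large-subunit genes. It was drawn up with the difference between ddcc and wild type in view, so the values of its members between genotypes are given as a description, without a test.

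Whole seeds of ecotype Columbia (Col 0), grown in a greenhouse and collected with embryos at the post-mature green stage, were profiled by RNA-seq in 2 wild-type libraries and 2 libraries of the mutant ddcc, all biological replicates. The letters of its name stand for DRM1 and DRM2 and for CMT2 and CMT3, DNA methyltransferase genes that act on cytosines mainly in non-CG contexts. No age in days, rescue line or other treatment is stated in the labels. Values are normalised read counts as deposited, which are not divided by gene length, so levels of different members are compared per kb of the longest annotated transcript. The most abundant gene of each other list and the marker sums rest on values undivided by length. Whole seeds were ground, so fewer cells of a type and less RNA per cell cannot be told apart in any value below.

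Reads assigned to genes numbered 1122934 and 1166635 for the mutant and 3416071 and 1292023 for the wild type (replicates 1 and 2 of each, the order in which pairs of values are given below). DRM2 stood at normalised counts of 4.85 and 8.33 in ddcc against 39.3 and 39.6 (limma adjusted p = 0.00347, and 0.0591 to 0.363 with any 1 library left out). SDC, an F-box gene silenced by non-CG methylation, stood at 1644 and 1897 against 0.88 and 2.52. DRM1 had no read in any library, CMT2 had 3 reads in all, and CMT3 did not pass the test (adjusted p = 0.891), so these 3 genes did not check the labels. Wild-type replicate 2 carries the source name of the mutant, but its title and genotype say wild type, and its DRM2 and SDC values lay with wild-type replicate 1.

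Ribosomal proteins are made in the cytosol, carried into the nucleolus and mounted on ribosomal RNA, and the particle is finished after export. Families that also exist in bacteria line the catalytic centre, the exit tunnel and the stalks, while others are found only in archaea and eukaryotes. In plants the upstream regions of many of these genes carry the telo-box and site II elements, and their transcripts are typical of growing cells, whereas a maturing seed stores protein, oil and messenger RNA and then dries.

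The upstream regions of 4 members are shown as examples. RPL10C (AT1G66580) was the member that was lower in ddcc in both libraries. AT4G16720 of RPL15 had the highest fold change, AT5G60670 of RPL12 had a high fold change with telo-boxes alone, and AT3G49010 of RPL13, chosen after its values were seen, has both elements and no neighbouring gene in the window. Each sequence is the 250 bases before the annotated transcript start in RefSeq's TAIR10.1 assembly, written 5′ to 3′ on the strand of the gene. Capitals mark the telo-box (AAACCCTA or TAGGGTTT) and site II (TGGGCC and also TGGGCT, which on the opposite strand read as GGCCCA and likewise AGCCCA), both searched on both strands. The windows are chr1:24838840-24839089 on the plus strand for RPL10C, and on the minus strand chr4:9401409-9401658 for AT4G16720, chr5:24381600-24381849 for AT5G60670 and chr3:18168701-18168950 for AT3G49010.
RPL10C: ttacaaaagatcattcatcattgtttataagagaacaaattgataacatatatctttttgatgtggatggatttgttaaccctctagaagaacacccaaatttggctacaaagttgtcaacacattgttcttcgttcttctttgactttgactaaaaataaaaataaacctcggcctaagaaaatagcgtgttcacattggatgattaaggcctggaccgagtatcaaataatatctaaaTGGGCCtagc
AT4G16720: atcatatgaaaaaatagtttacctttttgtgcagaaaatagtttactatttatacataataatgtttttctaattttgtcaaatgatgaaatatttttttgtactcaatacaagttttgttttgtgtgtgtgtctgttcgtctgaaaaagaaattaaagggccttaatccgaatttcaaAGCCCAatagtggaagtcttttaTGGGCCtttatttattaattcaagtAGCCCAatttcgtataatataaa
AT5G60670: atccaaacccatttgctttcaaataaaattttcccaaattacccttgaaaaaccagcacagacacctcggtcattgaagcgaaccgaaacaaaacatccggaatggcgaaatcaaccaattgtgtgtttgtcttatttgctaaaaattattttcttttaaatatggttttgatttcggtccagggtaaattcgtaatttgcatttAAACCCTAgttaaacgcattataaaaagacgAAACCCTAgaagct
AT3G49010: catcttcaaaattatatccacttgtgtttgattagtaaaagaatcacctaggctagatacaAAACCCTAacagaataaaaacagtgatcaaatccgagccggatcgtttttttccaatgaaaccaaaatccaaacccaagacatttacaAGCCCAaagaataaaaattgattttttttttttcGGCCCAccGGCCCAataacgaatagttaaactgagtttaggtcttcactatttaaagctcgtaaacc

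Among all 60 members, 44 (73.3%) had at least 1 site II word in these 250 bases, 14 (23.3%) had a telo-box, 12 had both and 14 had neither. Over 26718 nuclear genes the shares were 19.4% for site II, 4.44% for the telo-box and 1.40% for both. Words that overlap on opposite strands were counted separately. RPL10C held 1 site II word and no telo-box, AT4G16720 held 3 site II words, AT3G49010 held 1 telo-box and 3 site II words, and AT5G60670 held 2 telo-boxes and no site II word. Within the members, the median log2 fold change of ddcc over wild type was 0.93 for the 43 tested genes with site II and 0.96 for the 15 without. It was 1.31 for the 14 genes with 3 or more site II words. It was 1.01 for the 13 tested genes with a telo-box and 0.84 for the 45 without. A word match describes the sequence only, and the members were not chosen by it.

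Most of the members stood higher in ddcc seeds. Together they took 0.890% and 0.721% of the reads of ddcc, with exact binomial 95% intervals of 0.872% to 0.907% and 0.706% to 0.737%. For wild type the shares were 0.321% (0.315% to 0.327%) and 0.359% (0.349% to 0.369%). Both ddcc shares were higher than both wild-type shares, and the intervals cover counting error only. The members' summed normalised counts were 11783 and 10185 in ddcc against 5824 and 6110 in wild type. Deposited totals were lower in ddcc, at 1325381 and 1410907 against 1815256 and 1705082, so the shares differ more than the normalised counts do. Of the 60 members, 58 reached the level at which a gene was tested. The remaining pair, AT3G51190 of RPL8 and AT3G48960 of RPL13, had 0 reads in all 4 libraries, which allows up to 2.67 and 2.57 reads per 1000000 for ddcc, and 0.878 and 2.32 for wild type.

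Over the 58 tested members, the log2 fold change of ddcc over wild type had a median of 0.94, with the quartiles at 0.60 and 1.36 and a range from -1.03 to 2.10. The median standard error (SE) was 0.26. All 15780 genes tested had a median of 0.02, with quartiles at -0.39 and 0.44. The fold change was above 0 in 56 members, against 51.1% of all genes, and 25 members were at least 2-fold higher, against 9.28% of all genes. In 50 members both ddcc libraries lay above both wild-type libraries, which held for 25.7% of all genes. In 1 member, RPL10C, both lay below, which held for 25.3% of all genes, and in 7 the libraries overlapped. In limma 30 members were called higher and 1 lower at an adjusted p under 0.05, against 3.03% and 3.45% of all genes (6.48% in either direction), and since the list was chosen on this contrast nothing is read from those counts. Limma called 0 members without ddcc replicate 1 or 2, where 29 and 34 were higher at an unadjusted p under 0.05, against 5.03% and 4.99% of all genes. Without wild-type replicate 1 or 2 it called 19 and 18 higher, against 1.77% and 1.12% of all genes.

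**Figure D1:**
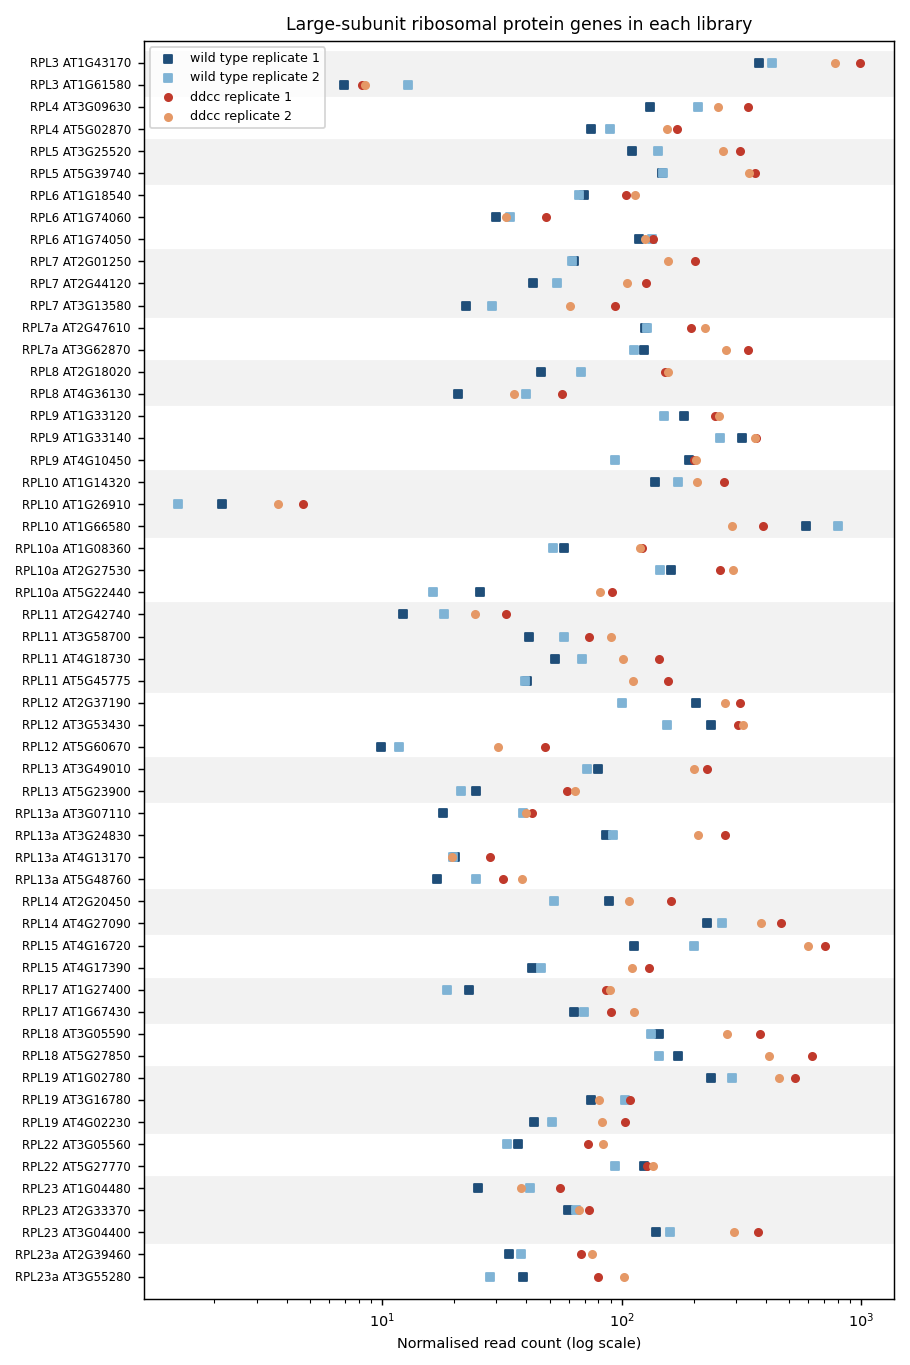
Normalised read count (log scale, not divided by gene length) of 56 of the 58 members with reads, 1 row per gene, grouped by family, with wild-type libraries as squares and ddcc libraries as circles. In 48 rows both circles lie to the right of both squares, and in the row of RPL10 AT1G66580 both lie to the left.

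**Figure D2:**
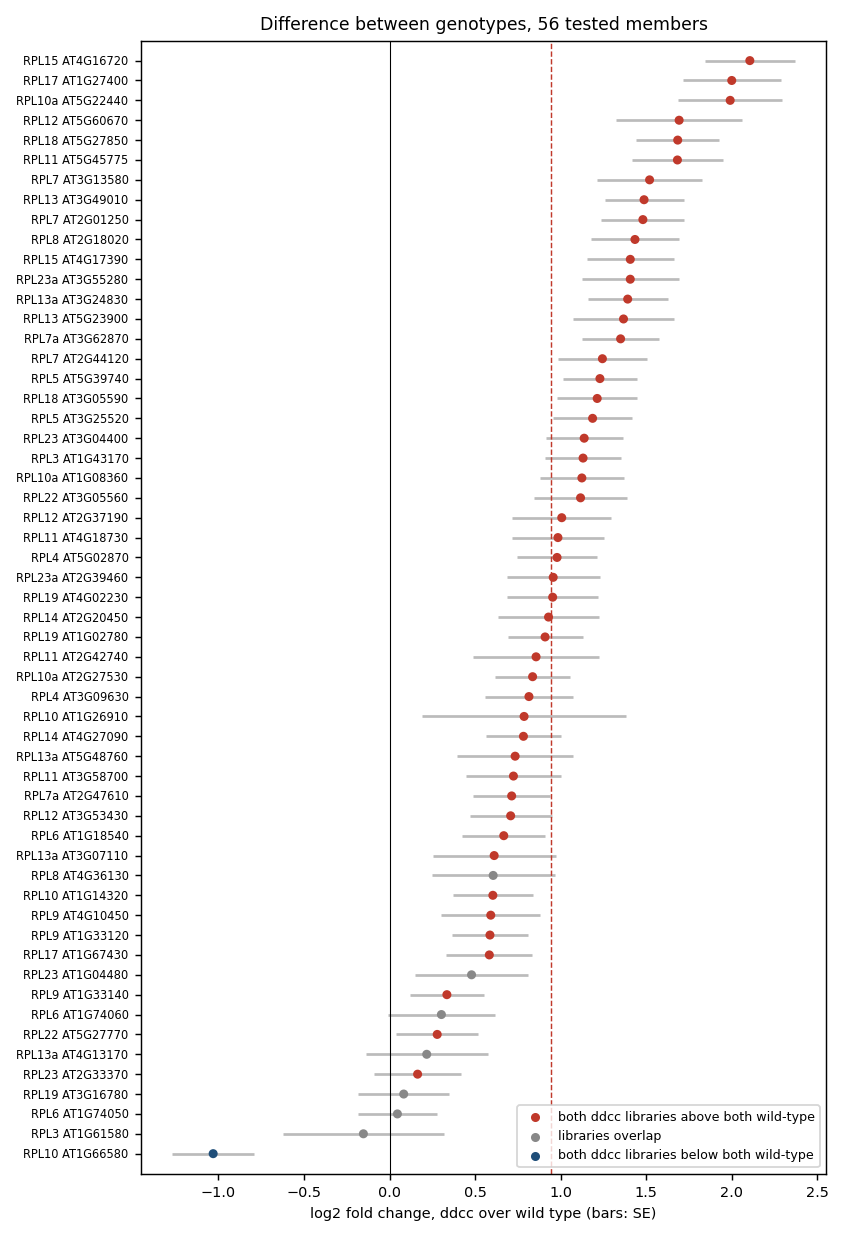
Log2 fold change of ddcc over wild type for 56 of the 58 tested members, ordered by size, with bars for the SE, a solid line at 0 and a dashed line at the members' median of 0.94. Colours show whether the libraries of the genotypes overlapped, and the values run from -1.03 for AT1G66580 to 2.10 for AT4G16720.

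The plot of values by gene shows that the spread between replicates was small against the shift. The members' median absolute log2 difference was 0.25 within ddcc and 0.28 within wild type, and 0.88 to 1.12 for libraries of different genotype. Ddcc replicate 1 stood above ddcc replicate 2 by a median of 0.22 over the members, while over all genes it stood 0.02 below. The plot of ordered fold changes shows no break between low and high values apart from RPL10C at the low end. The fold change did not follow level or length across members, with a Spearman coefficient of 0.09 with the mean per kb and -0.05 with transcript length over 58 genes of the same libraries, which are not independent replicates.

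Per kb, the level order of the members differed between the genotypes at the top. In wild type RPL10C led, with 512 and 693 normalised counts per kb in replicates 1 and 2, ahead of AT4G27090 of RPL14 with 312 and 359 and AT1G33140 of RPL9 with 317 and 257, the latter a pair whose ranges overlap. In ddcc AT4G16720 of RPL15 led with 707 and 602, followed by AT4G27090 with 635 and 524 and by RPL3A (AT1G43170) with 569 and 444. The ranges of AT4G16720 and AT4G27090 overlap, as do those of AT4G27090 and RPL3A, while both libraries of AT4G16720 lay above both of RPL3A. RPL10C had rank 9 in ddcc, at 339 and 249, and AT4G16720 had rank 10 in wild type, at 113 and 201. AT1G02780 of RPL19 had rank 4 in both genotypes, with 476 and 410 in ddcc against 213 and 259.

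Summed over paralogues per kb on the deposited scale, 22 of the 23 families were higher in both ddcc libraries than in both wild-type libraries. RPL10 was lower in both. No like share was computed over sums of other genes, and of single genes 25.7% lay higher and 25.3% lower in both ddcc libraries. The families are sums of the listed members, so this count is a description as well. The median ratio of ddcc to wild type over families was 2.10. Family sums ranged from 61.1 to 743 in wild type and from 148 to 771 in ddcc, so that the highest was 12.2 times the lowest in wild type and 5.20 times in ddcc. The wild-type maximum was RPL10, and the next family there was RPL9 at 546. Over all families the SD of the log2 means was 0.90 in wild type and 0.72 in ddcc.

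**Figure D3:**
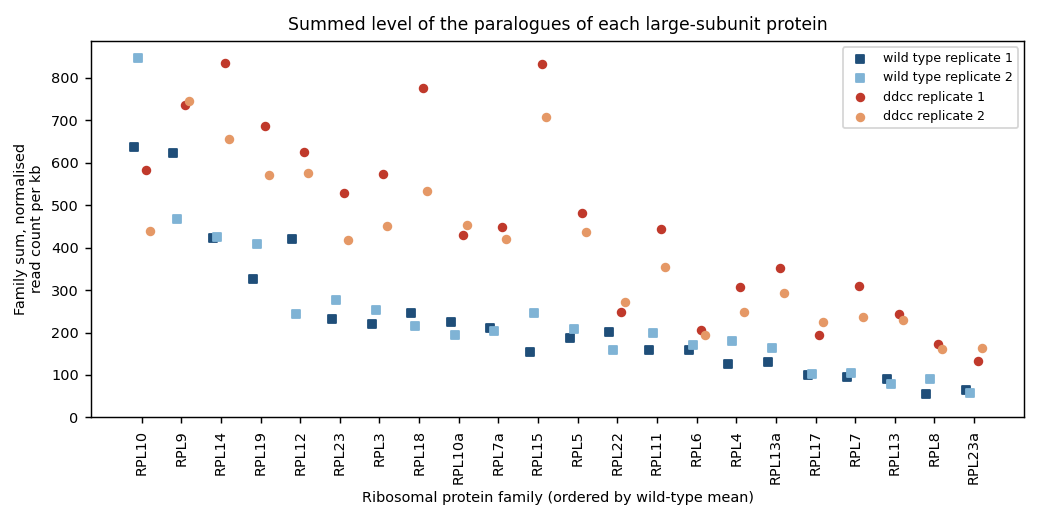
Summed normalised read count per kb of the paralogues of 22 of the 23 families, ordered by the wild-type mean, with wild-type libraries as squares and ddcc libraries as circles. The ddcc circles lie above the squares in every family shown but RPL10, the family with the highest wild-type level.

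The families at the catalytic core and the exit tunnel are described first. RPL3, which reaches towards the peptidyl transferase centre, was carried almost wholly by RPL3A (AT1G43170, chromosome 1, 16266553 to 16268945), at normalised counts of 989 and 772 in ddcc against 374 and 424 in wild type. Both ddcc libraries were high and the groups did not overlap, with a log2 fold change of 1.13 (SE 0.22). Its paralogue RPL3B (AT1G61580) was at 8.28 and 8.47 against 6.94 and 12.8, from 14 and 10 reads in the wild-type libraries, and the groups overlapped. RPL8, a core protein close to the catalytic centre, came mainly from AT2G18020, at 151 and 156 in ddcc against 45.9 and 68.0 in wild type, with a log2 fold change of 1.43 (SE 0.26). The libraries of its paralogue AT4G36130 overlapped, at 56.3 and 35.5 against 20.7 and 40.04.

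RPL4 and RPL17 line the exit tunnel through which the nascent chain leaves. The RPL4 sum per kb was 308 and 249 in ddcc against 125 and 181 in wild type, and both of its genes were higher in both ddcc libraries. In RPL17 the paralogues differed. AT1G27400 (chromosome 1, 9515114 to 9517070) stood at 86.2 and 89.5 in ddcc against 23.1 and 18.7, a log2 fold change of 2.00 (SE 0.29). AT1G67430 stood at 89.9 and 112 against 63.5 and 69.8, a log2 fold change of 0.58 (SE 0.25). All ddcc values were above all wild-type values for each, but the fold change of AT1G27400 was larger by 1.42 on the log2 scale. AT1G27400 overlaps AT1G06087 on the same strand. AT1G67430 overlaps AT1G08937 on the same strand and AT1G67440 on the opposite strand. Where these loci overlap, reads cannot be assigned to a single locus from these values. RPL23a and RPL19 sit near the tunnel's mouth. The lowest of the family sums was that of RPL23a, at 133 and 164 in ddcc against 65.5 and 56.7 in wild type. In RPL19, AT1G02780 was at 527 and 455 against 236 and 287 and AT4G02230 at 104 and 82.5 against 43.2 and 51.2, while the libraries of AT3G16780 overlapped at 108 and 80.2 against 74.6 and 104.

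RPL10, which joins the subunit late, in the cytoplasm, and lies close to the transfer RNA in the peptidyl site, was the family that went the other way. RPL10C (AT1G66580, chromosome 1, 24839090 to 24840806, plus strand), also known as the senescence-associated gene SAG24, had 390 and 287 normalised counts in ddcc against 589 and 797 in wild type. Both wild-type libraries were high and the groups did not overlap, with a log2 fold change of -1.03 (SE 0.24) from 331 and 237 reads against 1111 and 605. RPL10A (AT1G14320, SAC52, chromosome 1, 4888114 to 4889704) had 266 and 206 in ddcc against 138 and 171, a log2 fold change of 0.60 (SE 0.23). RPL10B (AT1G26910) had 4 and 3 reads in ddcc against 4 and 1, too few to place it. RPL10A and RPL10C transcripts are 88.9% identical over 660 aligned bases, and 4.6% and 4.81% of their 50-base stretches occur in another transcript.

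Because of RPL10C, the RPL10 family sum per kb was 583 and 438 in ddcc against 638 and 848 in wild type, a ratio of 0.687. Unlike a share, a sum changes with the scaling of the libraries, and this sum was taken on the deposited scale only. With equal nuclear totals the log2 fold change was -0.64 for RPL10C and 0.99 for RPL10A, and the family sum was not computed there. RPL10C made up 58.2% and 56.9% of the family in ddcc against 80.2% and 81.7% in wild type. RPL10A made up 41.0% and 42.2% against 19.4% and 18.1%. A share within a family does not change with the scaling of the libraries, and undivided by length the RPL10C share was 58.4% in ddcc and 81.5% in wild type. The fold change of RPL10C stayed below 0 in all alternatives tried, from -1.25 to -0.64. Its difference from RPL10A was 1.63 on the log2 scale.

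Every gene of the listed families that bind 5S RNA or take part in the stalks, RPL5, RPL11, RPL10a and RPL12, was higher in both ddcc libraries. RPL5 and RPL11 enter the subunit as a particle with 5S RNA. RPL5A (AT3G25520) was at 310 and 265 in ddcc against 110 and 142 in wild type, and RPL5B (AT5G39740) at 359 and 341 against 148 and 149. A copy of 95.6% identity over 183 bases makes the origin of a part of the RPL5B reads uncertain. In RPL11, AT5G45775 (chromosome 5, 18564992 to 18566582) was at 155 and 112 against 40.4 and 39.6, a log2 fold change of 1.68 (SE 0.26). The other RPL11 genes had log2 fold changes of 0.72 to 0.98, and in all 4 genes the ddcc libraries lay above the wild-type libraries.

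RPL10a forms the stalk beside the exit site for transfer RNA. AT5G22440 (chromosome 5, 7435065 to 7436769) was at 90.8 and 81.2 in ddcc against 25.5 and 16.3 in wild type, a log2 fold change of 1.99 (SE 0.30). The most abundant RPL10a gene per kb, PGY1 (AT2G27530), whose mutants alter leaf shape, was at 256 and 291 against 161 and 144, a log2 fold change of 0.84 (SE 0.22). Groups were apart in both genes, and AT1G08360 lay between them with a log2 fold change of 1.12. RPL12 forms the base of the stalk that recruits translation factors. AT2G37190 was at 311 and 269 against 204 and 100, and AT3G53430 at 307 and 320 against 236 and 155. In both of these RPL12 genes wild-type replicate 1 was the higher of its group and still below the ddcc libraries. The minor gene AT5G60670 (chromosome 5, 24380504 to 24381599) was at 48.1 and 30.6 against 9.91 and 11.8, a log2 fold change of 1.69 (SE 0.37) from 41 and 25 reads against 19 and 9.

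Other families shared with bacteria lie on the subunit's surface or its interface with the small subunit. RPL23, at the interface, was led by AT3G04400, at 369 and 293 in ddcc against 139 and 159 in wild type, a log2 fold change of 1.14 (SE 0.23). Its paralogue AT2G33370 was at 73.1 and 66.6 against 59.8 and 64.5, and the libraries of AT1G04480 overlapped. RPL9 had the second smallest family ratio above 1, 1.36. AT1G33140 (PGY2) was at 362 and 360 against 318 and 258, a log2 fold change of 0.34 (SE 0.22). AT1G33120 was at 246 and 254 against 182 and 151, but 53.4% and 54.2% of the 50-base stretches of AT1G33120 and AT1G33140 occur in another transcript, and the division of reads between the pair is uncertain. The third RPL9 gene, AT4G10450, was at 199 and 204 against 190 and 93.6, so its wild-type libraries lay further from each other than the means of the genotypes did.

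In RPL7 all 3 genes were higher in both ddcc libraries, with log2 fold changes of 1.24 to 1.52 and a family ratio of 2.74. RPL13a was led by AT3G24830 (chromosome 3, 9064525 to 9066180), at 269 and 208 in ddcc against 86.4 and 92.2 in wild type, a log2 fold change of 1.39 (SE 0.23). AT4G13170, which overlaps AT4G13160, was at 28.1 and 19.6 against 20.2 and 19.8, and there the groups overlapped.

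Among families without a bacterial counterpart, RPL15, which is buried in ribosomal RNA, had the largest family ratio, 3.86, with sums per kb of 833 and 709 in ddcc against 154 and 245. Its main gene AT4G16720 (chromosome 4, 9399865 to 9401408, minus strand) had normalised counts of 707 and 601 in ddcc against 113 and 201. Both ddcc libraries were far above both wild-type libraries, and the log2 fold change was 2.10 (SE 0.26), from 599 and 497 reads against 215 and 153. The locus overlaps AT4G16710 on the opposite strand. AT4G17390, the second RPL15 gene, was at 130 and 110 against 42.3 and 46.1.

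RPL18 followed with a family ratio of 2.83. AT5G27850 (chromosome 5, 9873067 to 9874973) was at 623 and 413 in ddcc against 172 and 143 in wild type, a log2 fold change of 1.68 (SE 0.24). The ddcc libraries differed from each other by more than the wild-type libraries did, and both were high. The RPL13 ratio was 2.80, carried by AT3G49010 (BBC1) at 228 and 201 against 79.4 and 71.4 and by AT5G23900 at 59.1 and 64.0 against 24.6 and 21.3. RPL14 came mostly from AT4G27090, the member with the highest mean per kb over all libraries, at 464 and 382 against 227 and 262, a log2 fold change of 0.78 (SE 0.22).

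RPL7a and RPL22 each had a paralogue with a larger fold change than its partner. In RPL7a, AT3G62870 was at 336 and 272 in ddcc against 123 and 112 in wild type, and AT2G47610 at 194 and 224 against 125 and 128. In RPL22, AT3G05560 was at 72.1 and 83.3 against 36.8 and 33.1, and AT5G27770 at 128 and 135 against 124 and 94.2. RPL6 had the smallest family ratio among those above 1, at 1.21, since the libraries of AT1G74060 and AT1G74050 overlapped and only AT1G18540 was apart, at 104 and 114 against 69.7 and 66.1.

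Fitted fold changes thus differed between paralogues of a family, and these differences were not tested. Over 49 pairs of paralogues the median absolute difference between their log2 fold changes was 0.52, where the median SE of a member was 0.26. Of these, 6 pairs differed by more than 1: RPL3A with RPL3B, RPL10C with each of RPL10A and RPL10B, AT5G22440 with PGY1, AT3G24830 with AT4G13170, and AT1G27400 with AT1G67430. RPL3B, RPL10B and AT4G13170 had at most 14, 4 and 38 reads in any library, and the pseudocount understates changes of low genes. The share of a paralogue in its family sum was higher or lower in both ddcc libraries than in both wild-type libraries for 43 of 60 members. In a family with 2 genes with reads the shares mirror each other, so a shift counts for both. The 2 members without reads could not be apart. No like share was computed over other genes. For level, 25.7% of all genes lay higher and 25.3% lower in both ddcc libraries. In 16 families a share moved by more than 5 percentage points. The paralogue with the highest level was nonetheless the same in both genotypes in 20 of the 23 families.

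**Figure D4:**
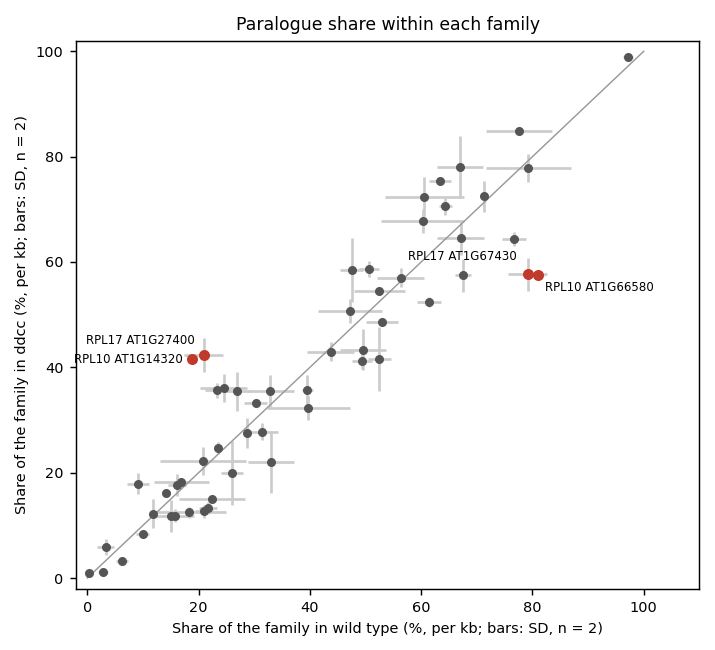
Share of the members of the same 22 families in their family's summed level per kb, wild type on the x axis and ddcc on the y axis, in percent, as means with SD bars over 2 libraries and a line of equal shares. The named red points are the RPL10 and RPL17 paralogues, whose shares lie more than 20 points from the line.

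The plot of shares shows the RPL10 and RPL17 pairs as the farthest from equal shares. AT1G27400 made up 42.3% ± 3.18 (SD, n = 2) of RPL17 in ddcc and 20.9% ± 3.55 in wild type, and AT1G67430 the rest. Smaller shifts went to the leading gene in RPL23, where AT3G04400 held 75.5% in ddcc against 63.3% ± 1.96, and in RPL13a, where AT3G24830 held 72.4% ± 3.70 against 60.5% ± 7.11. In RPL22 the shift went to the minor gene, AT3G05560, which held 35.6% ± 1.36 in ddcc against 23.3% ± 2.14. With 2 libraries against 2, no exact permutation test could reach p = 0.05, so the shares are not tested.

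Genes of the same pathway outside the list were tested, where limma called 3.03% of all genes higher and 3.45% lower in ddcc. These lists, too, were drawn up with earlier results of these data known, and their counts are a description. Of 78 other large-subunit genes 71 were tested, and 20 were called higher and 0 lower, at a median log2 fold change of 0.73. At an unadjusted p under 0.05, 36 were higher and 2 lower (10.1% and 11.1% of all genes). AT4G29410 of RPL28 had the smallest p and rose from 27.3 and 31.5 in wild type to 99.2 and 108 in ddcc (log2 fold change 1.76, adjusted p = 0.00189). AT2G27710, an acidic stalk protein gene of the RPP2 family and the most abundant of the list, was at 603 and 439 in ddcc against 339 and 255 (adjusted p = 0.06). It was called in 7 of the alternatives, with adjusted p from 0.00248 with equal nuclear totals to 0.0473 with a filter at 5 units. Of 98 small-subunit genes 87 were tested, and limma called 31 higher and 0 lower, where 51 and 0 had an unadjusted p under 0.05, at a median of 0.83. AT1G15930 of RPS12 rose from 56.7 and 74.7 to 289 and 299 (log2 fold change 2.15, adjusted p = 1.84e-04), and AT5G02960 of RPS23, the most abundant, was at 538 and 416 against 387 and 278 (adjusted p = 0.216, but 0.0165 with equal nuclear totals and 0.0395 after quantile normalisation). In the list of 26 ribosome assembly and nucleolar genes the median was -0.03. There 3 rose, among them NOP58 (AT5G27120), a core protein of the particles that methylate ribosomal RNA, at 282 and 288 against 109 and 100 (adjusted p = 0.00195), and FIB2, a fibrillarin gene, at 44.9 and 45.9 against 7.72 and 17.8 (adjusted p = 0.0134). REIL1, a factor of late 60S maturation in the cytoplasm, fell from 134 and 159 to 76.1 and 39.3 (adjusted p = 0.0131), and NUC-L1, the main nucleolin gene and the most abundant of the list, did not pass (adjusted p = 0.181, but 0.00914 and 0.00762 under the same scalings).

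Without ddcc replicate 1 or 2 no gene of these 3 lists kept its call. The median log2 fold changes were then 0.66 and 0.87 for the other large-subunit genes, and 0.79 and 0.99 for the small-subunit genes. Without wild-type replicate 1 or 2 fewer genes of both subunit lists were called higher, and the call of REIL1 was lost. There the medians were 0.78 and 0.69 for the other large-subunit genes, and 0.84 and 0.88 for the small-subunit genes. All genes had medians of -0.01 to 0.04 in these fits. On the recovered reads, voom called 26 other large-subunit and 36 small-subunit genes higher (3.51% of all genes) and 0 lower in each list.

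**Figure D5:**
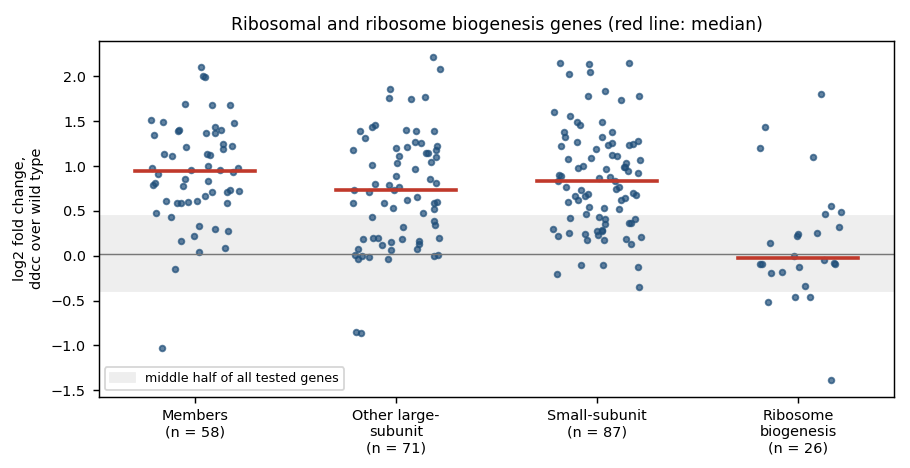
Log2 fold change of ddcc over wild type for each tested gene of 4 lists, 1 point per gene with a red line at the list's median, and a grey band from the first to the third quartile of all 15780 tested genes. The medians are 0.94 for the members, 0.73 for the other large-subunit genes, 0.83 for the small-subunit genes and -0.03 for the ribosome biogenesis genes.

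The plot of the 4 lists shows the members, the other large-subunit genes and the small-subunit genes at like heights, and the biogenesis genes around the level of all genes. Differences between lists were not tested.

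Some markers of seed tissues and cell states also differed between the genotypes, and their part in the members' values was not tested. The summed normalised counts of 7 embryo storage and LEA genes were 73007 and 79641 in ddcc against 113780 and 101240, and EM6 fell (log2 fold change -1.40, adjusted p = 0.0152) while CRU3 did not pass (adjusted p = 0.57). EM6 was at -0.71 after quantile normalisation (adjusted p = 0.0948) and lost its call without a filter (0.0975), without a trend (0.127) and without ddcc replicate 1 or 2 (0.498 and 0.523). SESA2 went the other way, at 3947 and 5445 in ddcc against 3181 and 1606, and did not pass (log2 fold change 1.04, adjusted p = 0.0677). The 5 endosperm markers summed to 23752 and 32278 in ddcc against 13971 and 15740, with SUC5 and ZOU, genes of the young endosperm, at 0 in every library. MAN7, a mannanase gene, rose (log2 fold change 2.30, adjusted p = 0.00185), and EPR1, which makes up nearly all of that sum, did not pass (adjusted p = 0.15), but was called after quantile normalisation (log2 fold change 1.55, adjusted p = 0.00192), with equal nuclear totals (0.00554), with robust moderation (0.0222) and by voom (0.0121). The 5 seed coat markers summed to 91.0 and 83.4 against 76.3 and 13.9, with BAN at 0 and TT10 not called (adjusted p = 0.121). Those sums come from 77 and 69 reads in ddcc against 137 and 9 in wild type. TT10 was called with the replicate block (adjusted p = 4.96e-05), with equal nuclear totals (0.0153) and without wild-type replicate 1 (log2 fold change 3.17, adjusted p = 0.0127). The 9 cell cycle markers summed to 42.3 and 33.1 in ddcc against 27.2 and 16.5, and the 3 that were tested were not called, CYCB1;1 with an adjusted p of 0.457. Reads of these 9 genes numbered 36 and 27 in ddcc against 50 and 12 in wild type. The 5 green tissue markers summed to 73.3 and 76.1 against 11.4 and 20.5, in ddcc nearly all of it RBCS1A, which rose (log2 fold change 2.99, adjusted p = 5.46e-04). Reads of these 5 genes numbered 62 and 63 in ddcc against 23 and 16 in wild type. PSAD1, the other green tissue marker tested, was at 1.27 and 3.54 in ddcc against 6.09 and 9.05 and did not pass (log2 fold change -1.24, adjusted p = 0.226). RBCS1A and MAN7 lost their calls without a trend and without ddcc replicate 1 or 2, with adjusted p from 0.0691 to 0.364. Genes of the organelle genomes took 4.01% and 4.08% of the deposited totals in ddcc against 2.08% and 1.89%.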

How the data were processed

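RNA-seq was done on whole seeds, 2 wild-type and 2 ddcc libraries, 1 table each. Per the labels' protocols total RNA was amplified with a NuGEN Ovation kit before library preparation, which kept no strand information that the labels state. The submitters' processing notes name Bowtie 0.12.7, edgeR 3.10.5 and TAIR10, while mapping and counting parameters were not given in the sources used here. The deposited values are a signal: read counts per gene that the authors normalised between libraries and did not divide by length. Each library is a biological replicate per the labels. The header of the table of wild-type replicate 1 names replicate 2, and the values of the wild-type tables differ.

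A pseudocount of 1 unit was added before the log2 step, a unit being 1.56, the mean of the column totals over 1e6. Genes averaging 1 unit or more were fitted with limma 3.58.1 in R 4.3.3, with genotype as the term and a variance trend, and called where the p adjusted by Benjamini-Hochberg over all genes tested was under 0.05. Fold changes are on this scale, which understates changes of low genes. The fit was also run on simulated counts drawn at the same dispersion for all genes, which cannot show how the calls hold in these libraries. Whole reads were recovered within 0.01 for 100% of genes with a value in ddcc and 99.9% in wild type, by inverting a quantile-based equalisation of library sizes at a dispersion of 0.0327. They gave depths, intervals and an alternative fit with voom in limma. Floors are 3 reads, and intervals and floors cover counting error only. Depth limited low members: reads over the 4 libraries ranged from 12 to 2502 per tested member, with a median of 388, and 5 members had under 100.

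Positions and upstream sequences came from the TAIR10.1 annotation, whose nuclear chromosomes are those of TAIR10. Copies of at least 95% identity over 100 bases were searched with BLAST+ 2.17.0. Of the members, 15 overlap another annotated locus, and 16 share 50-base stretches with another transcript.

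The members named with values are the 10 with the highest mean per kb, the 6 with the largest rise and the 6 with the largest fall among those whose libraries do not overlap (1 fell), those not tested, and paralogue pairs whose log2 fold changes differ by over 1. In each other list they are the most abundant gene and that with the smallest p. Further members are described as part of their family, and FIB2, REIL1, SESA2 and PSAD1 were named after their values were seen. The single results of 1 family, which stays in all counts and medians, are not reported here or drawn by name. Members, lists and rules were chosen with earlier results of these data known.

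The alternatives were pseudocounts of 0.5 and 5 units, a filter at 5 units or none, TMM factors, quantile normalisation, equal nuclear totals, no trend, robust moderation, a replicate block, voom, each library left out, and shares undivided by length. The replicate numbers did not pair the libraries.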

Additional observations from a re-analysis of the deposited data

How the results depend on the processing

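The members' median log2 fold change of 0.94 ranged from 0.87 to 1.05 with each library left out, was 1.05 after quantile normalisation and reached 1.33 with equal nuclear totals, which moved the median of all genes from 0.02 to 0.37, so that relative to all genes it was 0.96 against 0.92. That scaling also changed the split of the calls, with 87.5% of them higher in ddcc against 46.7%, or 57.2% after quantile normalisation. Called higher were 1435 of 15780 genes tested with equal nuclear totals, 32 of 15780 without a trend and 191 of 19745 without a filter. Without a filter 336 genes were called in place of 1023, with equal nuclear totals 1640, without a trend 33, and with a library left out 1 to 467. Of the members, limma without a trend called 0 higher and 0 lower, with 34 and 1 at an unadjusted p under 0.05, and with a library left out 0 to 19 higher and 0 to 1 lower. The single lower call, RPL10C, was also lost after quantile normalisation, without a filter or with equal nuclear totals (0 called in each). Of the other large-subunit genes 10 were higher without a filter, 38 with equal nuclear totals, 0 without a trend (29 at an unadjusted p under 0.05) and 0 to 11 with a library left out. Of the small-subunit genes these were 17, 54, 0 and 0 to 18. Of the biogenesis genes 6 were higher with equal nuclear totals, 0 without a trend and 0 to 3 with a library left out, while 0 were lower without a filter, without a trend or with any library left out. With 1 ddcc library left, that library was assumed to vary like the wild-type pair. The cause of these changes was not tested. For the fit without a trend, no share of all genes below the unadjusted threshold was computed. Nothing is therefore read from its 34 and 1 members or its 29 other large-subunit genes.

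The log2 fold change of RPL3B (AT1G61580) turned to 0.18 with equal nuclear totals and ranged from -0.53 to 0.23 with a library left out. That of AT4G13170 ranged from -0.027 to 0.46 with a library left out, and that of CRU3 turned to 0.30 after quantile normalisation. None of these was called in either direction. The libraries share a replicate number only, with a correlation of deviations of -0.05, and with a replicate block 34 members were higher and 1 lower, of 1381 genes called.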

Other observations

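The same upstream words were counted in genes outside the lists of cytosolic ribosomal protein genes. There were 15376 such nuclear genes tested, and nuclear genes of plastid and mitochondrial ribosomal proteins were not taken out of them. Of these, 210 had both a telo-box and a site II word in the 250 bases before the annotated start. Their median log2 fold change of ddcc over wild type was 0.08. The 11352 genes with neither had a median of 0.0046. With a telo-box alone or together with site II, 559 genes had a median of 0.10, and 3675 genes with site II had a median of -0.0011. These are descriptions over genes of the same 4 libraries, and no test was made.

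Cytosolic ribosomal protein genes of both subunits, 236 loci in all, together made up 2.34% and 1.88% of the deposited totals in the ddcc libraries against 0.913% and 0.985% in the wild-type libraries.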
